A study of Homo sapiens with 16 samples.

Results

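The genes described here are the death ligand TRAIL (TNFSF10), the death receptors FAS, TNFRSF10A (TRAIL receptor 1, DR4) and TNFRSF10B (TRAIL receptor 2, DR5), and the caspases CASP8, CASP10, CASP1 and CASP4. They were chosen by name, as the probes whose gene name in the scanner files equals 1 of these 8 symbols, which gave 16 probes of the 50599 on the array and 8 of 24780 gene symbols. The list was drawn up with earlier results of these data known. Counts and medians of the 8 genes set beside those of all genes are therefore descriptions and not tests of the list. Expression was measured with 1-colour arrays in RPMI-8226 and MM.1S, established human multiple myeloma (MM) cell lines, after 6 days with GSK126 (1 µM), which inhibits the H3K27 methyltransferase EZH2, UNC0638 (1 µM), which inhibits the H3K9 methyltransferase G9a (EHMT2), GSK126 + UNC0638 (1 µM each), or the solvent DMSO alone. Each of the 8 groups had 2 biological replicates, each on its own array, and no group carried a genetic change made for the study. The comparisons ask what inhibition of either enzyme did to these genes, and whether both inhibitors together did more than either alone.

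TRAIL and FAS ligand bind death receptors at the cell surface, and the receptors' death domains recruit FADD, which brings together the initiator caspases CASP8 and CASP10 and lets them start apoptosis. CASP1 and CASP4 belong to another branch, in which inflammasomes or intracellular lipopolysaccharide trigger the cleavage of gasdermin D and, for CASP1, of interleukin-1β. MM cells are malignant plasma cells, and TRAIL and several of these receptors and caspases are also known as genes that interferons can induce.

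A level below is the log2 intensity of a probe minus the 75th percentile of its array, so 0 is the brightness that 3 in 4 spots stay under. Levels of different probes are not comparable, so each probe was compared only with itself across arrays. Where a gene had several probes, the one with the highest mean over the 16 arrays is meant unless another is named, and all 8 of these probes were well above background on every array. Differences between group means were tested with limma, fitted to the 8 arrays of each line, and p-values were adjusted (Benjamini-Hochberg) over all probes kept (23196 in RPMI-8226, 25100 in MM.1S), and a gene is said to have risen or fallen only at an adjusted p below 0.05. Precision is limited by having 2 arrays in each group. The share of spots well above background was 46.5% to 49.7% in RPMI-8226 and 49.9% to 52.8% in MM.1S. The 75th percentile of intensity was 256 to 349 and 431 to 477, so every RPMI-8226 array was dimmer than every MM.1S array. Each line had a slide and a scan of its own, and the effects of line and slide cannot be told apart. All 8 plasma cell markers looked at, including SDC1 (CD138) and TNFRSF17 (BCMA), were well above background on all 16 arrays. In such bulk RNA, fewer cells of a type and less RNA per cell cannot be told apart. Their summed level lay between 7.44 and 7.61 with DMSO and between 6.98 and 7.22 with the combination in RPMI-8226, and between 8.92 and 8.93 and between 8.35 and 8.37 in MM.1S. Markers of other cells were measurable too, and their levels moved with treatment. The summed level of the 5 monocyte and macrophage markers (on the same log2 scale) lay between 0.82 and 1.17 with DMSO and between 2.62 and 2.71 with GSK126 + UNC0638 in RPMI-8226, and between -0.12 and -0.09 and between 0.88 and 1.08 in MM.1S. With single inhibitors the range was 2.35 to 2.8 for GSK126 and 0.59 to 1.06 for UNC0638 in RPMI-8226, and -0.64 to -0.45 and 0.93 to 1.02 in MM.1S. In RPMI-8226 the TNFSF10 and FAS levels below were also highest with GSK126, alone or combined. In MM.1S the summed level was lowest with GSK126 alone, where TNFSF10 and FAS lay above their levels with DMSO. For the 7 T and NK cell markers the ranges were 3.19 to 3.47 and 3.78 to 3.91 in RPMI-8226, and 0.69 to 0.81 and 1.33 to 1.45 in MM.1S, with GSK126 alone at 2.9 to 3.07 and 0.89 to 1.19 and UNC0638 alone at 3.9 to 4.09 and 1.22 to 1.24. CD3D, CD8A, CD2, NCAM1, CD14 and CD68 were above background on all 16 arrays. GNLY was above it on 0 of 8 RPMI-8226 and 8 of 8 MM.1S arrays, and CSF1R on 8 of 8 and 0 of 8. In the same order, CD3E was above it on 4 and 5 arrays, NKG7 on 2 and 1, ITGAM on 5 and 8, and MARCO on 3 and 1. A summed level follows its brightest probes, and NCAM1 reached the highest level among the T and NK cell markers (-0.92 to 3.95). The 5 stromal markers summed to between -1.02 and -0.25 with DMSO and between -0.13 and 1.2 with the combination in RPMI-8226, and to between -3.69 and -3.47 and between -3 and -2.86 in MM.1S. In MM.1S, COL1A1, COL1A2 and LUM were above background on 0 of 8 arrays, DCN on 3 and PDGFRB on 5. In RPMI-8226, COL1A1, COL1A2 and LUM were above it on 2 arrays each, DCN on 8 and PDGFRB on 0. The part of other cell types in the results below was not tested.

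**Figure D1:**
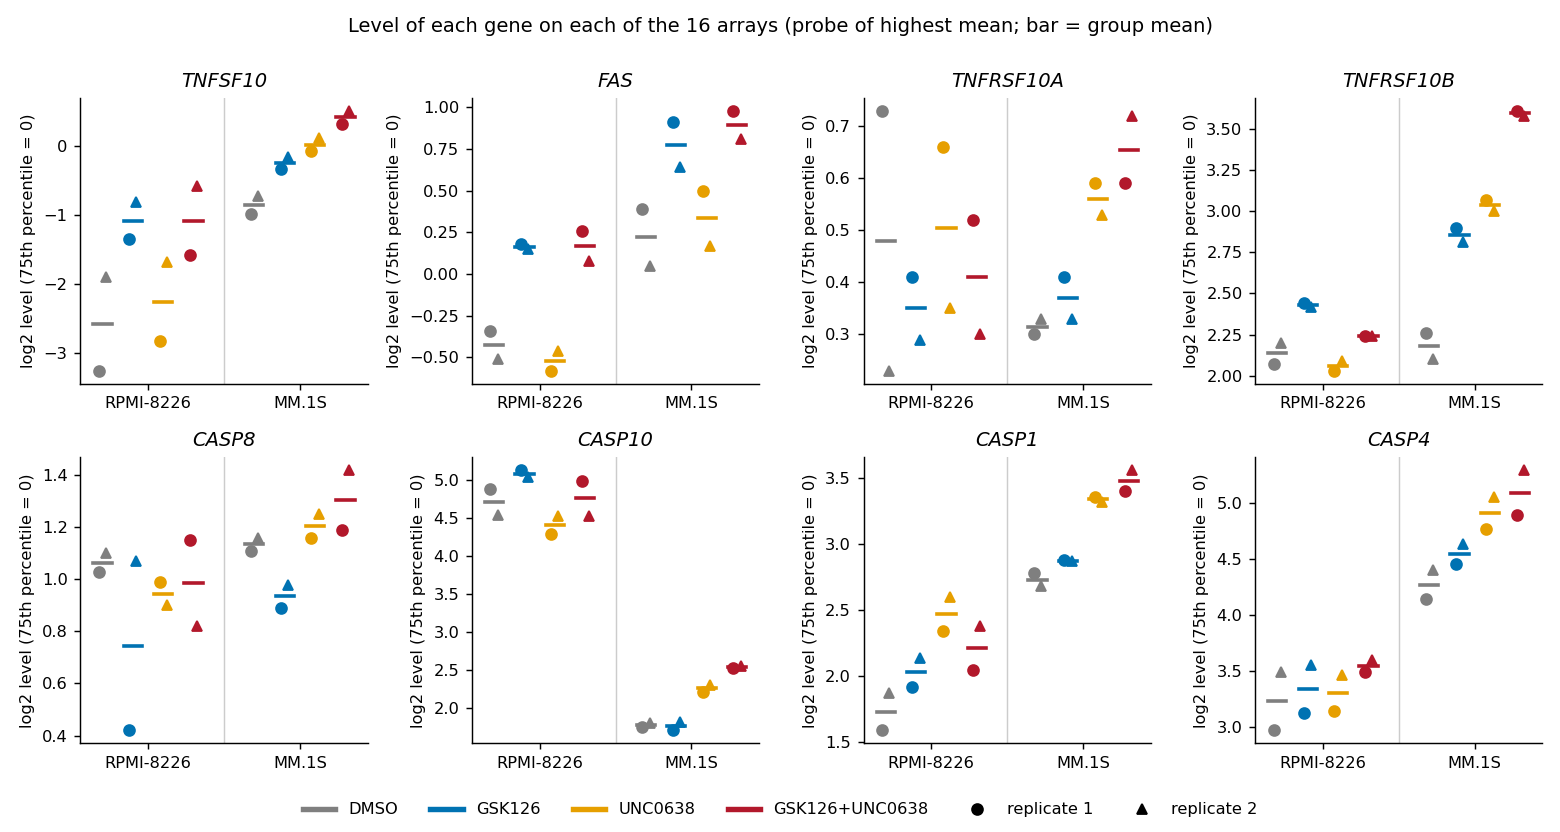
Level of each of the 8 genes on each of the 16 arrays, as log2 intensity minus the array's 75th percentile (vertical axis, one scale per gene), by cell line and treatment. Circles are replicate 1, triangles replicate 2 and bars group means; in MM.1S the combination arrays of TNFRSF10B, at 3.61 and 3.58, lie above all other MM.1S arrays, and in RPMI-8226 the FAS arrays with GSK126, alone or combined, lie above those without it.

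In MM.1S cells the combination treatment raised 7 of the 8 genes, and none fell. This count was 5 in 1 fit over all 16 arrays, and also 5 when no probes were filtered out. CASP10 is counted by 1 of its 3 tested probes, and the others were lower without passing. The background in this comparison was high, as 56.6% of all 15831 genes tested were called, 23.3% as higher and 33.4% as lower. The median log2 fold change was 0.76 over the 8 genes and -0.12 over all genes. With the 75th percentile taken over detected probes, every change would be 0.19 higher, the median of all genes would be 0.07, and CASP8 would pass as well. All 8 genes had both combination arrays above both DMSO arrays, as did 33.5% of all genes, while another 47.3% had both below. CASP8 was the gene that did not pass the test, with a log2 fold change of 0.17. UNC0638 alone raised 5 genes (TNFSF10, TNFRSF10B, CASP1, CASP4 and CASP10), beside 30.9% of all genes called, 13.7% as higher and 17.2% as lower, with a median of 0.54 over the 8 genes and -0.07 over all genes. This count was 3 without DMSO replicate 1 or UNC0638 replicate 2, and 2 (TNFRSF10B and CASP1) in 1 fit over all 16 arrays. GSK126 alone raised 1 gene, TNFRSF10B, beside 8.54% of all genes called, 6.17% as higher and 2.38% as lower (medians 0.21 and -0.04).

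In RPMI-8226 cells few of the genes passed the test. The combination treatment raised 1 gene, FAS, beside 12.8% of all 15037 genes called (8.05% as higher, 4.7% as lower), with medians of 0.21 over the 8 genes and -0.1 over all genes. GSK126 and UNC0638 alone gave 0 calls each, beside 0.738% of all genes called with GSK126 (0.692% as higher, 0.0466% as lower) and 0.678% with UNC0638 (0.612% and 0.0665%). At an unadjusted p under 0.05 these comparisons had 2 genes (TNFSF10 and FAS) and 1 gene (CASP1). Intervals were wider in this line, with standard errors of 0.128 to 0.589 on the log2 scale against 0.0843 to 0.18 in MM.1S. The same-numbered replicates of RPMI-8226 deviated together, and with the replicate number as a block the combination count became 3 (FAS, TNFSF10 and CASP1) and the GSK126 count 1 (TNFSF10), with 0 for UNC0638. The shares of all genes called rose with the block too, to 20.6% for the combination, 2.58% for GSK126 and 1.92% for UNC0638.

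**Figure D2:**
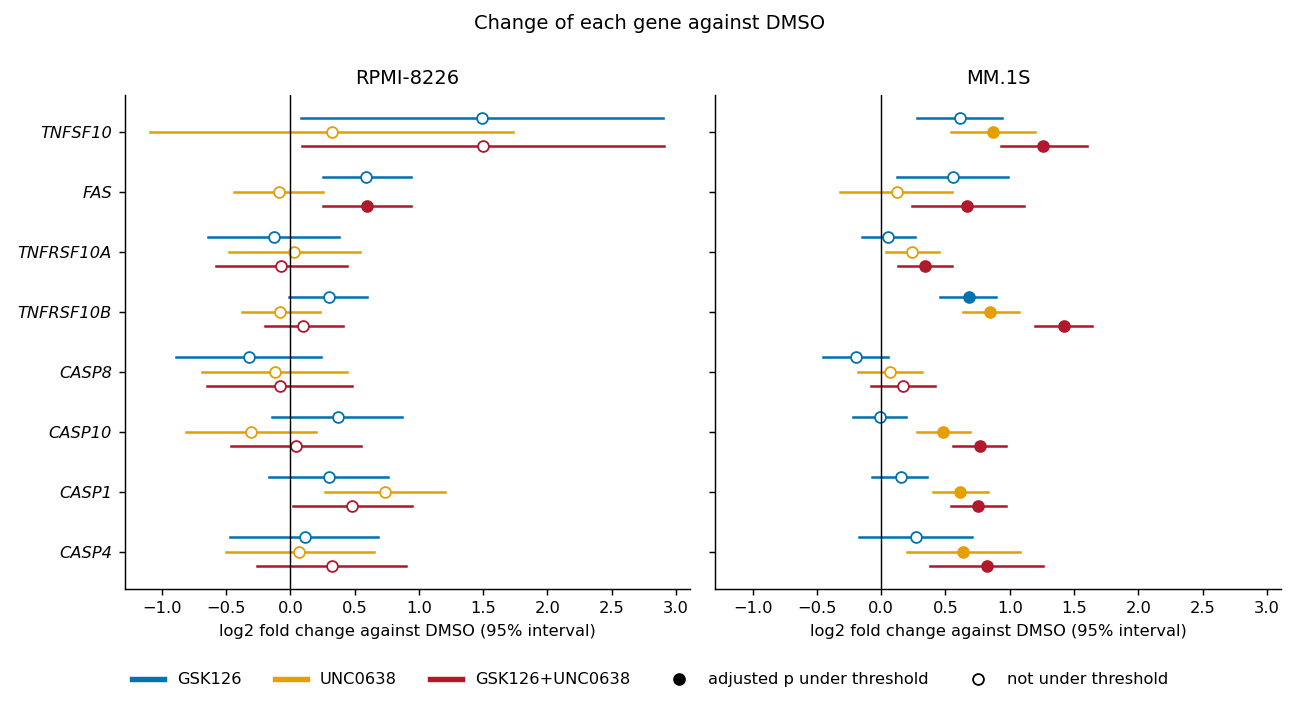
Log2 fold change against DMSO (horizontal axis) with its 95% confidence interval for each gene and treatment in each cell line, from 2 arrays per group. Filled points have an adjusted p below 0.05; in MM.1S, 7 combination points are filled, all above 0, and in RPMI-8226 only FAS with the combination is.

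TNFSF10 encodes TRAIL, the ligand, and its probe lies at chr3:172223866-172223925 (GRCh37, minus strand). In RPMI-8226, its levels on replicates 1 and 2 were -3.25 and -1.90 with DMSO, -1.35 and -0.81 with GSK126, -2.82 and -1.68 with UNC0638, and -1.58 and -0.58 with GSK126 + UNC0638. Replicate 1 was the lower array in every group, and the arrays with GSK126, alone or combined, were above both DMSO arrays, whereas those with UNC0638 alone overlapped them. The probe was printed on 10 spots per array, and on the lowest array, DMSO replicate 1, these ran from -3.89 to -2.64, all below the -2.03 of the lowest spot on DMSO replicate 2. The gap between those replicates therefore exceeded the spread of the spots. Fold changes were 2.81 with GSK126 (log2 1.49, 95% interval 0.08 to 2.90, limma adjusted p = 0.439) and 2.82 with the combination (log2 1.5, interval 0.09 to 2.91, adjusted p = 0.142). Neither passed, while with the replicate number as a block the adjusted p-values were 0.03 and 0.00687. Between same-numbered arrays the differences from DMSO were 1.90 and 1.09 with GSK126, 1.67 and 1.32 with the combination, and 0.43 and 0.22 with UNC0638. All were above 0, and those without GSK126 were the smallest.

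In MM.1S, TNFSF10 stood at -0.98 and -0.73 with DMSO, -0.33 and -0.16 with GSK126, -0.08 and 0.11 with UNC0638, and 0.32 and 0.51 with GSK126 + UNC0638, so that the 4 groups followed each other without overlap. It rose 1.82-fold with UNC0638 (log2 0.87, SE 0.136, adjusted p = 0.00799) and 2.4-fold with the combination (log2 1.26, SE 0.136, adjusted p = 0.000815). With GSK126 the log2 fold change of 0.61 (SE 0.136) had an adjusted p of 0.0513, just outside the threshold. The combination exceeded GSK126 by 0.65 (adjusted p = 0.0136) and UNC0638 by 0.40 (interval 0.07 to 0.73, adjusted p = 0.103). Without GSK126 replicate 1 or combination replicate 2 the difference from GSK126 no longer passed (adjusted p = 0.0698 both times), and in 1 fit over all 16 arrays, which takes in the wider spread of RPMI-8226, the adjusted p-values were 0.26 for UNC0638 and 0.0605 for the combination against DMSO, and 0.377 for the combination against GSK126. A further TNFSF10 probe gave log2 fold changes of 0.61, 0.87 and 1.26 in MM.1S for GSK126, UNC0638 and the combination, and 1.5, 0.23 and 1.36 in RPMI-8226. Its position does not overlap that of the main probe. The third probe, for transcript variant 3, was above background on none of the 16 arrays.

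FAS is the receptor of FAS ligand, measured here by a probe at chr10:90774545-90774604 (GRCh37, plus strand). In RPMI-8226, it measured -0.34 and -0.51 with DMSO, 0.18 and 0.15 with GSK126, -0.58 and -0.46 with UNC0638, and 0.26 and 0.08 with GSK126 + UNC0638. The 4 arrays with GSK126 lay above the 4 without it. The combination raised FAS 1.51-fold (log2 0.60, SE 0.143, adjusted p = 0.0439). GSK126 alone gave a log2 fold change of nearly the same size, 0.59 (interval 0.25 to 0.94), which did not pass (adjusted p = 0.196), and UNC0638 gave -0.09 (interval -0.44 to 0.25). The combination differed from UNC0638 by 0.69 (adjusted p = 0.059, 0.0422 with the replicate number as a block) and from GSK126 by 0.00 (interval -0.34 to 0.35). The call for the combination rested on the full set of arrays, since without any 1 of the 8 the adjusted p lay between 0.0607 and 0.207.

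MM.1S levels of FAS were 0.39 and 0.05 with DMSO, 0.91 and 0.64 with GSK126, 0.50 and 0.17 with UNC0638, and 0.98 and 0.81 with the combination. As in the other line, both groups with GSK126 lay above both groups without it. FAS rose 1.59-fold with the combination (log2 0.67, SE 0.178, adjusted p = 0.0208), and the log2 fold changes were 0.56 with GSK126 (interval 0.12 to 0.99, adjusted p = 0.112) and 0.12 with UNC0638 (interval -0.32 to 0.55, adjusted p = 0.659). Without DMSO replicate 2 or either combination array the combination's adjusted p lay between 0.0511 and 0.1. The other FAS probes gave 0.77 and 0.65 for the combination, both called, and 0.45 and 0.50 for GSK126. The first of them overlaps the main probe by position and is not a separate measurement, while the second does not overlap it.

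TNFRSF10B, known as DR5 (probe at chr8:22877776-22877835, GRCh37, minus strand), had the largest change in MM.1S among the 8 genes. Its levels there were 2.26 and 2.10 with DMSO, 2.90 and 2.81 with GSK126, 3.07 and 3 with UNC0638, and 3.61 and 3.58 with GSK126 + UNC0638. No groups overlapped, the combination lying highest and DMSO lowest. TNFRSF10B rose 1.6-fold with GSK126 (log2 0.68, SE 0.0896, adjusted p = 0.0148), 1.81-fold with UNC0638 (log2 0.85, adjusted p = 0.00292) and 2.68-fold with the combination (log2 1.42, interval 1.20 to 1.64, adjusted p = 0.000216). It was the 1 gene of the 8 called against DMSO with either inhibitor alone and with both. The combination exceeded GSK126 by 0.74 (adjusted p = 0.00286) and UNC0638 by 0.57 (adjusted p = 0.0201), and the changes with the single inhibitors sum to 1.53 on the log2 scale. The calls for GSK126 against DMSO and for the combination against UNC0638 were lost without single arrays, with adjusted p-values up to 0.0944 (2 arrays, DMSO replicate 2 and GSK126 replicate 1) and 0.0873 (4 arrays, those of the 2 groups compared).

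In RPMI-8226, TNFRSF10B changed little. It stood at 2.07 and 2.20 with DMSO, 2.44 and 2.42 with GSK126, 2.03 and 2.09 with UNC0638, and 2.24 and 2.24 with GSK126 + UNC0638. The log2 fold changes were 0.30 (interval -0.01 to 0.60, adjusted p = 0.485), -0.08 (interval -0.38 to 0.23) and 0.10 (interval -0.20 to 0.41). With DMSO its RNA differed between the lines by -0.04 (RPMI-8226 minus MM.1S, interval -0.26 to 0.17), which did not pass. The response differed between the lines in a fit over all 16 arrays, by -0.93 for UNC0638 (adjusted p = 0.00814) and by -1.31 for the combination (interval -1.62 to -1.01, adjusted p = 0.000323). The difference for GSK126 was -0.38 (adjusted p = 0.338). TNFRSF10B was the 1 gene of the 8 whose response to UNC0638, and to the combination, passed this test, beside 3.28% of all 16806 genes for UNC0638 (1.28% with the RPMI-8226 fold change above that of MM.1S and 2% with it below) and 14.9% for the combination (8.4% and 6.5%). For GSK126, 0 of the 8 passed it by limma (1 at an unadjusted p under 0.05), beside 0.982% (0.47% and 0.512%).

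TNFRSF10A, known as DR4 (probe at chr8:23049253-23049312, GRCh37, minus strand), moved less. In MM.1S, its levels were 0.30 and 0.33 with DMSO, 0.41 and 0.33 with GSK126, 0.59 and 0.53 with UNC0638, and 0.59 and 0.72 with the combination. It rose 1.27-fold with the combination (log2 0.34, SE 0.0844, adjusted p = 0.0166) and by 0.29 over GSK126 (adjusted p = 0.0419), while UNC0638 gave 0.24 (adjusted p = 0.0763). Both calls were small and depended on the fit: in 1 fit over all 16 arrays the adjusted p-values were 0.136 and 0.26, and without DMSO replicate 1, DMSO replicate 2 or combination replicate 2 that of the combination against DMSO lay between 0.0556 and 0.0738. The difference from GSK126 was not called without any of 7 arrays, all but combination replicate 1 (adjusted p between 0.0676 and 0.163). In RPMI-8226 the DMSO arrays alone spanned 0.23 to 0.73, the 6 treated arrays lay within that range, from 0.29 to 0.66, and the log2 fold changes ran from -0.13 to 0.03.

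The initiator caspases sit next to each other on chromosome 2, after CFLAR, which encodes the inhibitor c-FLIP. The main CASP8 probe lies at chr2:202151838-202151897 (GRCh37, plus strand). CASP8 levels in MM.1S were 1.11 and 1.16 with DMSO, 0.89 and 0.98 with GSK126, 1.16 and 1.25 with UNC0638, and 1.19 and 1.42 with the combination. No treatment changed it against DMSO by the test, and the combination exceeded GSK126 by 0.37 (adjusted p = 0.0338), a call lost without any of 7 of the 8 arrays (adjusted p between 0.0545 and 0.137), all but combination replicate 1. A second probe, for transcript variant E, rose by 0.35 with the combination (adjusted p = 0.0305). In RPMI-8226 the CASP8 arrays lay between 0.42 and 1.15, and the log2 fold changes were -0.32 with GSK126, -0.12 with UNC0638 and -0.08 with the combination, none of which passed. The second probe gave values of the other sign there, 0.33, 0.28 and 0.54, which did not pass either (adjusted p = 0.686, 0.837 and 0.195).

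CASP10 depended on the probe. The 3 probes above background lie on chromosome 2 (GRCh37, plus strand), and the first 30 of the 60 bases of each are shown because the probes disagreed; no part is marked.
A_33_P3383283, chr2:202086244-202086303: gagaacaatcccctttgactgtaatttccc
A_33_P3504659, chr2:202084646-202084705: ccttggggcgtggaagggcattaggagtgt
A_24_P3045, chr2:202057711-202057770: ccctaagtttcctggcatttctagagaaac

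The first of these, with the highest mean, was 2.94 higher in RPMI-8226 than in MM.1S on the DMSO arrays (adjusted p = 1.32e-07), at 4.89 and 4.54 against 1.75 and 1.81. The other two were lower in RPMI-8226 (log2 differences of -1.81 and -1.68, adjusted p = 9.62e-07 and 8.04e-06). The direction of the line difference in CASP10 therefore turned with the probe. In MM.1S the first probe read 1.71 and 1.82 with GSK126, 2.21 and 2.31 with UNC0638, and 2.53 and 2.56 with the combination. It rose 1.4-fold with UNC0638 (log2 0.48, SE 0.0843, adjusted p = 0.0109) and 1.7-fold with the combination (log2 0.77, SE 0.0843, adjusted p = 0.000866), and the combination exceeded GSK126 by 0.78 (adjusted p = 0.00231). The call for UNC0638 was lost without DMSO replicate 1 and without UNC0638 replicate 2 (adjusted p between 0.0579 and 0.0625). For UNC0638 the other probes gave -0.18 and -0.35 (adjusted p = 0.37 and 0.0746). For the combination they gave -0.13 and -0.32 (adjusted p = 0.476 and 0.0683), and the mean over the 3 gave 0.11 (adjusted p = 0.422). What lies behind the disagreement was not tested. In RPMI-8226 the first probe read 5.13 and 5.04 with GSK126, 4.29 and 4.53 with UNC0638, and 4.99 and 4.53 with the combination, and the log2 fold changes against DMSO were 0.37, -0.31 and 0.04, none of which passed. The response of the first probe differed between the lines by -0.79 for UNC0638 (adjusted p = 0.106) and -0.72 for the combination (adjusted p = 0.0688), and the latter passed without RPMI-8226 DMSO replicate 2 (0.0492) or RPMI-8226 combination replicate 1 (0.0241). The remaining probe, annotated to transcript variant 2 like A_24_P3045, was kept in neither line. A_33_P3383283 and A_33_P3504659 are annotated to the same transcript as each other, although their line differences with DMSO had opposite signs.

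**Figure D3:**
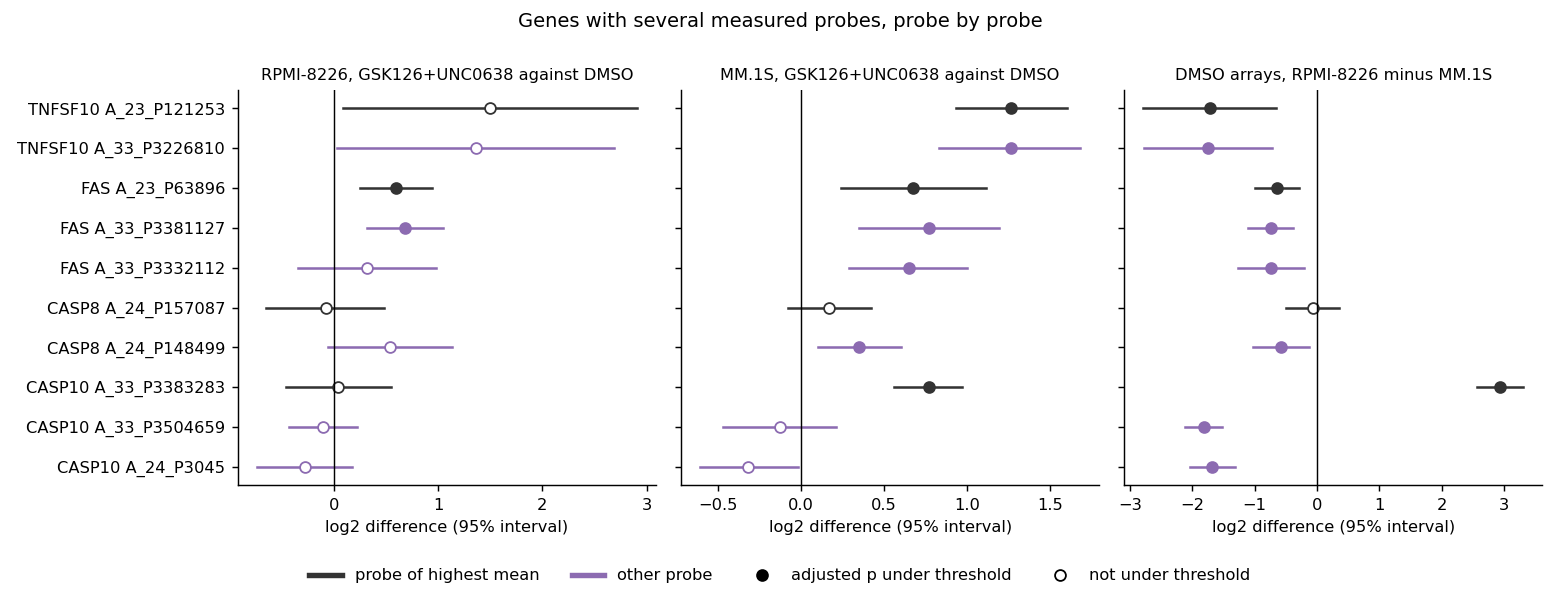
Log2 difference (horizontal axis, each panel on its own scale) with its 95% confidence interval for every measured probe of the genes with more than 1 measured probe, for the combination against DMSO in each line and for RPMI-8226 minus MM.1S on the DMSO arrays. Filled points have an adjusted p below 0.05. TNFSF10 and FAS probes lie on the same side of 0 in each panel, whereas the 3 CASP10 probes lie on both sides in each. In the panel of the DMSO arrays they are at 2.94, -1.81 and -1.68. The CASP8 probes lie on both sides for the combination in RPMI-8226, at -0.08 and 0.54.

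CASP1 and CASP4, the inflammatory caspases, lie on chromosome 11 with CASP5 between them (probes at chr11:104897058-104897602 for CASP1 and chr11:104815492-104815551 for CASP4, GRCh37, minus strand). CASP1 levels in MM.1S were 2.78 and 2.68 with DMSO, 2.88 and 2.87 with GSK126, 3.36 and 3.32 with UNC0638, and 3.40 and 3.56 with the combination. The groups with UNC0638 lay clear of those without it. CASP1 rose 1.53-fold with UNC0638 (log2 0.61, SE 0.0884, adjusted p = 0.00645) and 1.69-fold with the combination (log2 0.75, SE 0.0884, adjusted p = 0.00106). The combination exceeded GSK126 by 0.61 (adjusted p = 0.0047) and UNC0638 by 0.14 (interval -0.08 to 0.36, adjusted p = 0.319), and GSK126 alone gave 0.15 (adjusted p = 0.327). The calls for UNC0638 and the combination against DMSO, and for the combination against GSK126, held in all 19 alternatives run for each.

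In RPMI-8226, CASP1 measured 1.59 and 1.87 with DMSO, 1.92 and 2.14 with GSK126, 2.34 and 2.60 with UNC0638, and 2.05 and 2.38 with GSK126 + UNC0638. All 6 treated arrays lay above both DMSO arrays. The log2 fold change was 0.74 with UNC0638 (interval 0.27 to 1.20, adjusted p = 0.235) and 0.48 with the combination (interval 0.02 to 0.95, adjusted p = 0.149, 0.042 with the replicate number as a block). Between same-numbered arrays UNC0638 differed from DMSO by 0.75 and 0.73. The response to UNC0638 differed between the lines by 0.12 (interval -0.36 to 0.60).

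CASP4 stood at 4.14 and 4.40 with DMSO in MM.1S, 4.45 and 4.63 with GSK126, 4.77 and 5.05 with UNC0638, and 4.89 and 5.29 with the combination. Replicate 2 was the higher array in each group. CASP4 rose 1.77-fold with the combination (log2 0.82, SE 0.18, adjusted p = 0.0103) and 1.56-fold with UNC0638 (log2 0.64, SE 0.18, adjusted p = 0.043). Without DMSO replicate 1 the call for the combination was lost (adjusted p = 0.0584), and that for UNC0638 was lost without any 1 of 6 arrays, those of all groups but the combination (adjusted p between 0.0635 and 0.177). In RPMI-8226 the levels were 2.97 and 3.49 with DMSO, 3.12 and 3.55 with GSK126, 3.14 and 3.46 with UNC0638, and 3.49 and 3.60 with the combination, and no difference passed (log2 fold changes of 0.11, 0.07 and 0.32).

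The lines also differed with DMSO alone, where 4 of the 8 genes were lower in RPMI-8226 than in MM.1S and 1, CASP10 by its first probe, was higher, beside 60.2% of all 16806 genes called (29.7% as higher and 30.5% as lower in RPMI-8226). The median difference was -0.36 over the 8 genes and -0.01 over all genes. The log2 difference was -1.72 for TNFSF10 (SE 0.481, adjusted p = 0.0107), -1.04 for CASP4 (adjusted p = 0.0025), -1 for CASP1 (adjusted p = 0.000253) and -0.64 for FAS (adjusted p = 0.00613). The differences in TNFRSF10A, TNFRSF10B and CASP8 were 0.16, -0.04 and -0.07 and did not pass. For TNFSF10 the call was lost without RPMI-8226 DMSO replicate 1 and without MM.1S DMSO replicate 2 (adjusted p between 0.0582 and 0.101), and for FAS without MM.1S DMSO replicate 1 (0.0636), while TNFRSF10A was called without RPMI-8226 DMSO replicate 2 (0.0483).

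Setting both inhibitors against each one alone, 6 of the 8 genes were higher with the combination than with GSK126 in MM.1S (39.6% of all genes called, 15.8% as higher and 23.8% as lower), a count that was 3 in 1 fit over all 16 arrays and 3 without GSK126 replicate 1 or combination replicate 2, and 1, TNFRSF10B, was higher than with UNC0638 (15.1% called, 6.93% as higher and 8.14% as lower). The 2 genes not called against GSK126 were FAS, with a log2 difference of 0.12, and CASP4, with 0.55 (adjusted p = 0.0558, and 0.0377 without combination replicate 1). In RPMI-8226 the combination gave 0 calls against GSK126 (2.53% of all genes, 2.04% as higher and 0.485% as lower, with 0 of the 8 at an unadjusted p under 0.05) and 0 against UNC0638 (3.64%, 3.07% as higher and 0.565% as lower, with 1 of the 8, FAS, at an unadjusted p under 0.05). With the replicate number as a block the latter count was 2, FAS and TNFSF10 (adjusted p = 0.029), beside 7.32% of all genes called. All comparisons with DMSO in a line share the same 2 DMSO arrays, and those with the combination share its 2 arrays, so the counts are not independent of each other.

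Promoter windows, from 250 bases before to 50 after a gene's start, were at hand from RefSeq (GRCh38.p14) for 4 of the 8 genes, with 1 window each for TNFSF10 and CASP4 and 3 each for FAS and CASP8. They were searched on both strands for the core of the interferon-stimulated response element (TTTC, a pair of any bases, TTTC) and for TTCNNNGAA, the gamma-activated site bound by STAT dimers. The motifs can overlap each other. The first motif was in 2 of the 8 windows and in 3.57% of all 35116 windows in the table, and the second was in 1 and in 7.66%. A match is a description of the letters, and occupancy was not measured here. TNFSF10, with the first motif, rose in MM.1S with the combination, as did FAS and CASP4, whose windows held neither motif. A CASP8 window held both motifs, and in that comparison its second probe rose while the brighter probe did not. Whether the motifs had a part in these changes was not tested. The stretches that hold a match are shown 5′ to 3′ on the gene's strand, with the match in capitals, because genes with and without a match rose.
TNFSF10, chr3:172523583-172523642, minus strand, match at -187 to -178 from the start: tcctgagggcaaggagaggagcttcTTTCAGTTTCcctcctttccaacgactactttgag
CASP8, chr2:201233435-201233472, plus strand, match at -3 to 7: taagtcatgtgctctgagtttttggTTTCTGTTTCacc
CASP8, chr2:201233238-201233296, plus strand, match at -200 to -192: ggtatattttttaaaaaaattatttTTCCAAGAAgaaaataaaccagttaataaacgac

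The counts of called genes in the rest of the pathway stand beside those of all genes with the combination, 23.3% risen and 33.4% fallen in MM.1S (median -0.12) and 8.05% and 4.7% in RPMI-8226 (median -0.1). Other ligands, receptors and decoys were tested for 8 of 13 genes in MM.1S, of which 5 rose and 1 fell with the combination (median log2 fold change 0.68), among them TNFRSF25, which encodes the death receptor DR3, at 1.52 (adjusted p = 0.000547). TNFRSF10D, a TRAIL receptor that lacks a working death domain and acts as a decoy, rose by 2.40 on the log2 scale (adjusted p = 0.000296), and LTB, which encodes lymphotoxin-β, was at least 1.94-fold higher (adjusted p = 0.00105). LTA and the decoy TNFRSF6B rose as well, and the gene that fell was TNFRSF1A (-0.73, adjusted p = 0.003), which encodes TNF receptor 1. TNFRSF10D lies between TNFRSF10B and TNFRSF10A on chromosome 8 with TNFRSF10C, another decoy, which was not tested in RPMI-8226 or MM.1S because no group had it above background on both arrays. In RPMI-8226, 1 of 7 tested genes of this list rose, LTB (log2 1.5, adjusted p = 0.0335), and 1 fell, TNFRSF25 (log2 -0.96, adjusted p = 0.0191), while TNFRSF10D gave -0.16 (adjusted p = 0.585).

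Among adaptors, inhibitors and kinases, all 14 genes were tested in both lines. With the combination 5 rose and 4 fell in MM.1S (median 0.01), with the largest changes among those called in RIPK3 (1.20, adjusted p = 0.000406), the kinase of necroptosis, and BIRC3 (0.97, adjusted p = 0.00128), which encodes the ubiquitin ligase cIAP2. TRADD, RIPK1 and BIRC2 rose as well, and FADD, MLKL, BID and HTRA2 fell. With quantile normalization 6 rose and 2 fell, and with the percentile over detected probes 7 rose and 2 fell. Normexp background correction left the counts at 5 and 4. FADD, the adaptor that both initiator caspases bind, fell by 0.37 on the log2 scale (adjusted p = 0.00946). In RPMI-8226, 2 rose and 1 fell (median 0.13), BIRC3 by 1.74 (adjusted p = 0.00841), RIPK1 by 0.73 (adjusted p = 0.0429) and CFLAR by -0.78 (adjusted p = 0.0295) on the log2 scale. The number that fell there was 0 with the percentile over detected probes and 2 with normexp background correction. CFLAR gave -0.16 (adjusted p = 0.31) in MM.1S, where its neighbour CASP10 was called by 1 probe.

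For inflammasome and pyroptosis genes, 9 of 13 tested rose and 0 fell in MM.1S (median 0.80), with DFNA5 (gasdermin E) at 2.47 (adjusted p = 0.00436) and CARD17 at 2.03 (adjusted p = 0.000174). CARD16, the neighbour of CASP1 on the side away from CASP5, rose by 0.97 (adjusted p = 0.00116). CASP5, another inflammatory caspase, belongs to the list of other caspases, which is not reported here as a whole. It is named for its position and does not stand for that list. CASP5 rose by 0.99 (adjusted p = 0.00129), so that CASP4, CASP5, CASP1 and CARD16, which follow each other on chromosome 11, were all called higher. In RPMI-8226 none of these 4 passed with the combination, with CASP5 at 0.19 and CARD16 at 0.11. In RPMI-8226, 3 of 13 rose and 0 fell (median 0.46), with NLRP3 at 3.15 (adjusted p = 0.0404) and AIM2 at 1.45 (adjusted p = 0.038), both inflammasome sensors, and CARD8 at 0.87 (adjusted p = 0.0226). CARD16 and CARD17 resemble the start of CASP1, and CASP4 resembles CASP5; whether their RNA binds each other's probes was not tested.

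Among all genes tested in MM.1S, 33.4% fell and 23.3% rose with the combination. In the list of cell death execution genes, 7 of 8 fell and 1 rose there (median -0.55). The number that fell was 5 with the percentile over detected probes and 6 with quantile normalization. The 1 that rose was APAF1 (1.45, adjusted p = 0.000407), the scaffold of the apoptosome, and the largest falls were in AIFM1 (-0.92, adjusted p = 0.00116), a mitochondrial flavoprotein released in cell death, and CYCS (-0.87, adjusted p = 0.000574), cytochrome c. In RPMI-8226, 0 of 8 passed in either direction by limma (median -0.38).

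**Figure D4:**
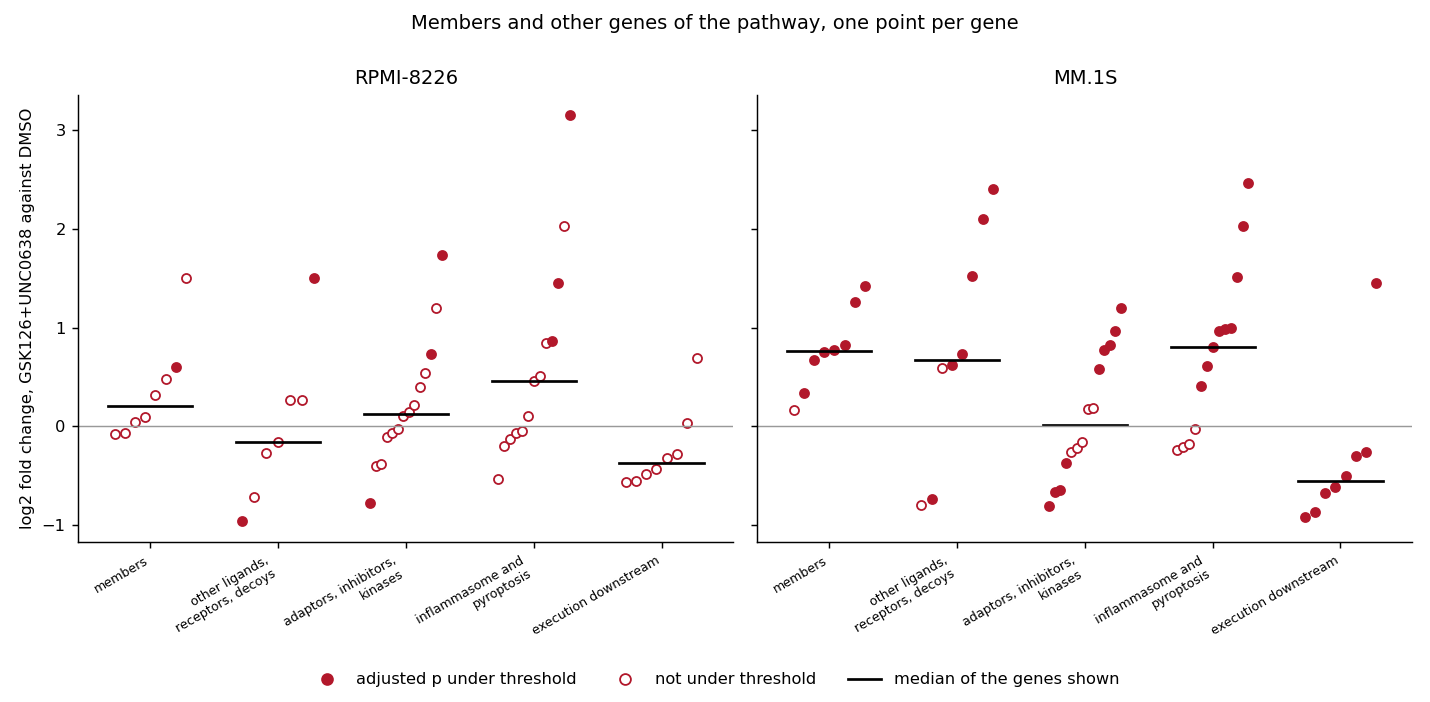
Log2 fold change of the combination against DMSO (vertical axis) for the 8 genes and for the tested genes of 4 lists in each cell line, 1 point per gene, with the median as a bar. Filled points have an adjusted p below 0.05; in MM.1S the 8 genes have a median of 0.76 and the execution genes one of -0.55, and the LTB point in MM.1S stands for a lower bound because its DMSO arrays were not above background.

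The genes whose levels followed each member most closely were sought over the 16 arrays after the mean of each line was taken off, among 12566 genes. The closest to CASP4 was its neighbour CASP5 (Pearson r = 0.95). For TNFSF10 they were SERPINB6 (0.976), RPS6KA3 and HLA-DMB, for FAS EPHB6 (0.97), CHRFAM7A and ID1, and for TNFRSF10B FRMD4B (0.969), GAA and STAT6. For CASP1 they were AMPH (0.923), EEA1 and CD33, for CASP8 SACM1L (0.916), STRN3 and SLC38A2, for CASP10 PIK3CD (0.913), SGSH and CTSA, and for TNFRSF10A MAGED1 (0.887), GSPT2 and LGALS9C. These are descriptions over arrays that share treatments and slides, with no test.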

How the data were processed

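RNA of 16 samples was measured. The authors labelled RNA with a single dye, used an array for every sample and deposited scanner output (Agilent Feature Extraction 10.7, per the submitters' processing notes), in which each spot has an intensity after background subtraction, not normalized between arrays. A deposited table of the series holds the same intensities rounded. From these, control spots and outlier spots were left out, spots of the same probe were averaged as log2 intensity minus the array's 75th percentile, and a probe was kept for a line if any group had it well above background in both replicates. limma (3.58.1, R 4.3.3) was fitted per line, and over all 16 arrays for differences between lines and the DMSO comparison, with Benjamini-Hochberg adjustment.

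The members and gene lists were chosen with earlier results of these data known. Named list genes are the 2 with the largest change among those called for the combination in each line; other genes of the lists were named after their values were seen. Replicates are labelled biological without further detail, so p-values measure the spread between these samples. In RPMI-8226 same-numbered arrays deviated together in 6 of 6 pairs of groups (r between 0.254 and 0.415), so the numbers were taken to pair the samples. In MM.1S this was counted in 5 of 6, with r between 0.115 and 0.225, against 0.085 for DMSO with UNC0638. The main calls in both lines come from the fit without the replicate block, which was run as an alternative. On both slides replicate 1 lay in row 1 and replicate 2 in row 2, and each treatment in a column of its own, so replicate number and treatment cannot be told apart from the place on the slide. Markers were found for 25 genes, and LYZ and FCGR1A, like the protein sequences of the members, were not analysed here. Alternatives were quantile normalization, normexp background correction (offset 50), a percentile over detected probes, the series table, other filters, an intensity-dependent prior variance, the mean over a gene's probes, the replicate block, other sets of arrays in the fit, and each array left out. The list of other caspases is not reported here as a whole.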

Additional observations from a re-analysis of the deposited data

Results flagged for a closer look

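The response of TNFRSF10B differed between the cell lines by the limma test of the difference itself over 16 arrays. It was smaller in RPMI-8226 than in MM.1S for UNC0638 (difference -0.93 on the log2 scale, adjusted p = 0.00814) and for the combination treatment (difference -1.31, adjusted p = 0.000323). The adjusted p lay between 0.00207 and 0.0375 for the former and between 4.51e-05 and 0.00227 for the latter over the alternatives run.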

How the results depend on the processing

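Over the 8 genes and 14 comparisons, 2320 alternative results were computed, of which 2140 kept their direction and side of the threshold, 75 lost a call, 44 gained one and 61 changed sign. Of those called, 2 changed sign, both CASP10 with the mean over its kept probes, whose probes disagree: -0.19 between the lines with DMSO and -0.02 for UNC0638 in MM.1S. The other 59 were of differences that were not called, and 0 of them were called after the change. A percentile over detected probes moves all changes by a constant, 0.19 for the combination in MM.1S and 0.13 in RPMI-8226, which takes the median of all genes from -0.12 to 0.07 and from -0.1 to 0.03. It turned TNFRSF10A (0.06) and CASP8 (0.05) with the combination in RPMI-8226, TNFRSF10A against UNC0638 there (0.04) and CASP10 with GSK126 in MM.1S (0.06). Quantile normalization turned the latter (0.03) and the line difference of CASP1 for UNC0638 (-0.06), and normexp those of FAS for GSK126 (-0.03) and TNFSF10 for the combination (-0.25). The probe mean turned CASP10 (-0.12) and CASP8 (0.23) with the combination and CASP8 with UNC0638 (0.08) in RPMI-8226, and the line difference of CASP8 for GSK126 (0.11). Leaving out 1 array turned 28 such differences, with these ranges. In RPMI-8226 they were, for GSK126, CASP4 -0.15 to 0.37 and TNFRSF10A -0.38 to 0.12, for UNC0638, CASP4 -0.19 to 0.33, TNFRSF10A -0.22 to 0.28 and TNFSF10 -0.35 to 1, and for the combination, CASP10 -0.19 to 0.27, CASP8 -0.25 to 0.09 and TNFRSF10A -0.32 to 0.18. Against GSK126 the combination gave CASP8 -0.08 to 0.57 and TNFRSF10A -0.05 to 0.17, and against UNC0638 CASP8 -0.13 to 0.21 and TNFRSF10A -0.24 to 0.06. In MM.1S they were CASP10 with GSK126 (-0.07 to 0.04), FAS with UNC0638 (-0.06 to 0.29), FAS between the combination and GSK126 (-0.02 to 0.25), and CASP4 (-0.02 to 0.38) and CASP8 (-0.01 to 0.21) between the combination and UNC0638. Between the lines they were TNFRSF10A (-0.09 to 0.41) and TNFRSF10B (-0.12 to 0.03) with DMSO, CASP4 (-0.42 to 0.1), CASP8 (-0.45 to 0.2), FAS (-0.13 to 0.21) and TNFRSF10A (-0.44 to 0.07) for GSK126, CASP1 (-0.02 to 0.26), TNFRSF10A (-0.47 to 0.03) and TNFSF10 (-1.22 to 0.13) for UNC0638, and FAS (-0.25 to 0.09) and TNFSF10 (-0.44 to 0.91) for the combination. Counts of called genes among the 8 moved by over 1.5 times as follows, and otherwise the cause was not tested. For GSK126 in MM.1S (1), the count was 2 with the filter for every array and with the detected percentile, 3 with the prior trend, normexp and the replicate block, and 0 without a filter and with only the 2 groups in the fit. For UNC0638 in MM.1S (5) it was 2 in the fit over all arrays. For the combination against GSK126 in MM.1S (6) it was 3 in that fit, and against UNC0638 (1) it was 4 with the trend and the block, 2 with normexp, quantile normalization and the detected percentile, and 0 without a filter and with only the 2 groups. For the combination in RPMI-8226 (1) it was 3 in the fit over all arrays and with the block, and 0 with the probe mean, normexp, no filter and only the 2 groups. For the combination against UNC0638 in RPMI-8226 (0) it was 1 in the fit over all arrays and with the trend, normexp and the detected percentile, and 2 with the block. For RPMI-8226, UNC0638 gave 1 in the fit over all arrays and GSK126 1 with the block (0 each otherwise). The line difference for the combination (1) gave 2 with the filter for every array and with the trend. Leaving out 1 array gave 0 to 1 for GSK126, 3 to 5 for UNC0638 and 5 to 7 for the combination in MM.1S, 3 to 7 and 0 to 1 for the combination against GSK126 and UNC0638, 0 for the combination in RPMI-8226, 1 to 2 for the line difference and 4 to 6 between the lines with DMSO. The replicate numbers of MM.1S did not all pair (r between 0.085 and 0.225), and there the block gained calls and lost none: GSK126 against DMSO for FAS (adjusted p = 0.0232) and TNFSF10 (0.0138), the combination against UNC0638 for FAS (0.0198), TNFSF10 (0.0258) and CASP10 (0.0465), and against GSK126 for CASP4 (0.0072). With the block the shares of all genes called in these comparisons were 11.1%, 20% and 44.2%. Signal over background and 2 arrays per group limit what can be seen, above all in RPMI-8226.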
